A study of Sus scrofa with 70 samples.

Results

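The miRNAs described here are those that the pig genome carries inside its HOX clusters under the names miR-10 and miR-196. They were chosen by name, as every entry of the miRNA table that begins with ssc-miR-10a, ssc-miR-10b or ssc-miR-196. This gave 9 of 743 entries, under 6 mature names. miR-10a-5p, miR-10a-3p and miR-10b have 1 entry each, and miR-196a, miR-196b-5p and miR-196b-3p have 2 each. The samples came from boars aged 12 months of the Banna mini-pig inbred line (BMI) and of Diannan small-ear pigs (DSE), the breed from which BMI was derived by inbreeding. Each breed gave 3 accessory glands (vesicular, bulbourethral and prostate gland) and the testis and epididymis, and RNA was taken from the tissue without sorting cells. Small RNA was sequenced in 3 libraries for each breed and gland, 30 in all. As many RNA-seq libraries and 1 Iso-seq library for each breed and gland were also made. The epididymal segment and the way in which replicates relate to animals are not given in the sources used here. The p-values therefore measure the spread between these libraries only, which may not be that between animals.

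HOX genes encode transcription factors that give cells their position along the body axis, and they lie in clusters in which gene order follows the order of expression. The miR-10 hairpins sit beside the fourth-group HOX genes and the miR-196 hairpins next to the ninth group, on its distal side, and both families are known to target HOX transcripts. A miRNA is cut from its hairpin as a duplex, of which 1 arm is mostly kept, and it finds its targets mainly through bases 2 to 8 of its 5′ end, the seed.

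The mature sequences are shown because the family members differ so little that a mapper must tell them apart by a single base. They are the RefSeq annotation on the Sscrofa11.1 assembly, read 5′ to 3′, with the seed in capitals.
miR-10a-5p: uACCCUGUagauccgaauuugu
miR-10b: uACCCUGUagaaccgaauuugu
miR-10a-3p: cAAAUUCGuaucuaggggaau
miR-196a: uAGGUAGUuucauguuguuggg
miR-100: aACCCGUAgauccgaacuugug
Counted from the 5′ end, miR-10a-5p and miR-10b differ by 1 of 22 bases, T12A in DNA letters, and share their seed. miR-100 is a relative of miR-10 that lies outside the HOX clusters and has another seed. It is shown to mark where the miR-10 family ends. miR-196a is encoded by MIR196A-1 and MIR196A-2 with 0 differences. The mature miR-196b sequences are not used here. In the annotated mir-196b-1 hairpin, the stretch closest to miR-196a, in capitals, has the same seed and differs from miR-196a by 1 of 22 bases, A12C.
mir-196b-1 hairpin: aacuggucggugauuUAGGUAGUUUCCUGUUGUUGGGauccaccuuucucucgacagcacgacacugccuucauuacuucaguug

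The hairpins lie in all 4 HOX clusters. In Sscrofa11.1, miR-10a-5p is at chr12:24833694-24833715 and miR-10a-3p at chr12:24833654-24833674, both on the minus strand, with the MIR10A hairpin 1325 bp from HOXB4. miR-10b is at chr15:81951653-81951674 on the plus strand, with MIR10B 936 bp from HOXD4. miR-196a is at chr12:24886364-24886385 on the minus strand, with MIR196A-1 5982 bp from HOXB9, and at chr5:19204463-19204484 on the plus strand, with MIR196A-2 1471 bp from HOXC10. In RefSeq these 4 hairpins overlap no gene and are intergenic. Of the Iso-seq isoforms described further on, exons reach MIR10B alone among these hairpins, and only introns span the others. The mir-196b-1 hairpin is at chr18:45404314-45404398 on the plus strand, 1056 bp from HOXA10, within an exon of the antisense gene LOC102159438.

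The unit RPM is an entry's reads scaled by the authors to the same total of miRNA reads in every library. Whole reads could be recovered from 28 of the 30 libraries, which held 1294583 to 11816786 miRNA reads in testis and 13065229 to 21673936 in the other glands. The labels were checked against marker genes in the RNA-seq libraries. PRM1 of spermatids reached 18217 to 71826 TPM (transcripts scaled to a common total in each library) in testis, PSP-I of the vesicular gland 216153 to 261758 TPM in its own gland, and MSMB 88607 to 178304 TPM in prostate gland. In the epididymis CRISP1 ranged from 21.3 to 2759 TPM. In bulbourethral gland PSP-I reached 73.5, MSMB 33.4 and PRM1 4.29 TPM, and the muscle gene ACTA1 ranged from 0 to 688.58 TPM. The RNA-seq library BMI prostate gland replicate 2 held PSP-I at 169569 TPM against 1.04 to 9.2 TPM in the other 5, and the epididymis libraries differed among themselves as described further on. The small RNA libraries BMI vesicular gland replicate 1 and BMI prostate gland replicate 3 held miR-143-3p, a miRNA of smooth muscle and stroma, at 41804 and 30078 RPM against 293936 RPM or more in the other 10 libraries of these glands. The values without these libraries are given beside the results they touch or in the closing section.

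Together the 9 entries took 1.40 to 9.78% of the miRNA reads of a library, nearly all of it miR-10. Their mean share was 6.16% ± 1.40 (SD, n = 6) in vesicular gland, 5.03% ± 3.09 in epididymis, 4.66% ± 0.865 in testis, 3.33% ± 1.35 in prostate gland and 1.9% ± 0.418 in bulbourethral gland. All 6 bulbourethral libraries lay below all testis and vesicular gland libraries, and the epididymis libraries spread over almost the whole range. The miR-196 entries took at most 0.065% of a library, summed over both entries of each. By abundance, miR-10b ranked 4 to 12 among all 743 entries of a library. miR-10a-5p ranked 3 to 11 in epididymis, 4 to 6 in vesicular gland and 4 to 8 in prostate gland, but 33 to 94 in testis and 39 to 63 in bulbourethral gland.

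**Figure D1:**
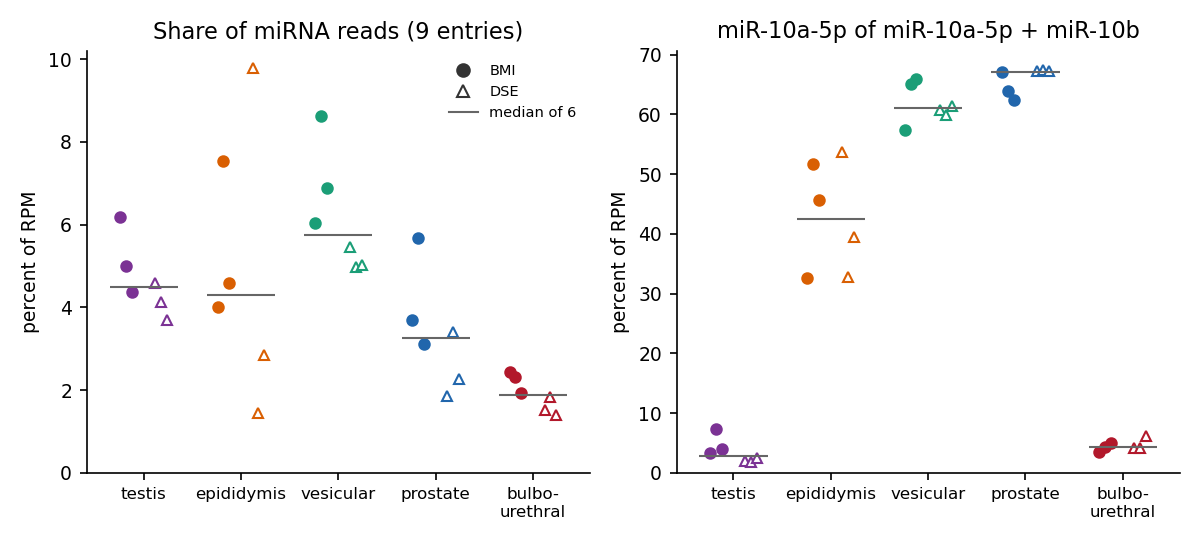
Left, the percent of a library's miRNA RPM held by the 9 entries; right, miR-10a-5p as a percent of miR-10a-5p plus miR-10b. Each point is 1 of 30 libraries, filled circles BMI and open triangles DSE, and grey lines are medians of 6. On the right, testis and bulbourethral gland lie at 1.88 to 7.28% and the other glands at 32.5 to 67.4%.

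miR-10a-5p, the guide arm of the HOXB hairpin, divided the glands into those that held it and those that held little. In vesicular gland it had a lowest value of 29723 RPM, a median of 33748 and a highest of 55822 RPM. In prostate gland these values were 12273, 21013 and 36052 RPM, and in epididymis 4673, 16739.8 and 52551 RPM. All 18 of these libraries lay above all 12 of the other glands. Testis had 775.8, 1341 and 3629.8 RPM, and bulbourethral gland 607, 838 and 976 RPM. Against the mean of the other 4 glands, in limma with Benjamini-Hochberg adjustment on log2(RPM + 1), the log2 fold change was 3.05 (SE 0.297, adjusted p 7.9e-09) in vesicular gland, or 8.25-fold higher. It was 1.96 (SE 0.297, adjusted p 1.4e-05) in prostate gland and 1.68 (SE 0.297, adjusted p 0.0001015) in epididymis by the same test. miR-10a-5p was 14.3-fold lower in bulbourethral gland (log2 -3.84, SE 0.297, limma adjusted p 1.1e-10) and 7.20-fold lower in testis (log2 -2.85, SE 0.297, limma adjusted p 3.8e-09). Relative to the median of all entries tested, these log2 values came to -3.46 in bulbourethral gland and -4.19 in testis, so their order turned.

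In the order of its levels in RPM, which was vesicular gland, prostate gland, epididymis, testis and bulbourethral gland, 1 pair of neighbours differed beyond the spread. Testis lay below epididymis by -3.62 on the log2 scale (limma adjusted p 5.5e-09). Vesicular minus prostate gland was 0.87 (limma adjusted p 0.107), epididymis minus prostate gland -0.23 (limma adjusted p 0.725) and testis minus bulbourethral gland 0.79 (limma adjusted p 0.0566), none of which passed. Relative to the median of all entries tested, testis minus bulbourethral gland was -0.49, so the order of this pair holds in RPM only. Epididymis lay below vesicular gland by -1.09 (limma adjusted p 0.0269). In bulk tissue, fewer cells that hold a miRNA and less of it per cell cannot be told apart, here and in all later results.

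miR-10a-3p, the other arm of the same hairpin, had the same pattern at a far lower level. Its median was 124 RPM in vesicular gland, 66.4 in prostate gland, 57.8 in epididymis, 4.62 in testis and 1.82 in bulbourethral gland. In the library-wise ratio, miR-10a-5p was 179 to 1390 times as abundant as miR-10a-3p, with a median of 321. In RPM the log2 fold changes of miR-10a-3p ran from -3.76 in bulbourethral gland to 2.90 in vesicular gland, and it passed the test in the same 5 gland contrasts as the 5′ arm and in the same directions.

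miR-10b, from the HOXD hairpin, was abundant in every gland. Testis had a lowest value of 36085 RPM, a median of 43526 and a highest of 59839.6 RPM. The values were 9560, 25579.5 and 45187 RPM in epididymis, and 19289.6, 22335 and 29930.3 RPM in vesicular gland. They were 12917, 17593 and 23159 RPM in bulbourethral gland and 5990.2, 11323 and 20411 RPM in prostate gland. All 6 testis libraries lay above all vesicular, prostate and bulbourethral libraries and overlapped with epididymis. In RPM the log2 fold change of testis against the other glands was 1.32 (SE 0.203, limma adjusted p 2.0e-06), but the median of all 526 entries tested was higher there by 1.34, and relative to it miR-10b stood at -0.02. Its direction in testis turned to -0.33 when libraries were scaled by median-of-ratios size factors (limma adjusted p 0.114) and to -0.71 with edgeR on the recovered reads (adjusted p 0.00225), so a higher miR-10b in testis holds for its share of miRNA reads only. The corresponding shift of the median entry was -0.20 in epididymis, and -0.58, -0.28 and -0.38 in the vesicular, prostate and bulbourethral glands.

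In the prostate gland miR-10b was lower than in the others, by -1.27 on the log2 scale (SE 0.203, limma adjusted p 2.8e-05) and by -0.99 relative to the median entry. edgeR gave -0.87 there, which is smaller than the log2 fold change of 1 that a call needed. Epididymis and vesicular gland differed from the rest by 0.18 and 0.13 and did not pass in limma. Bulbourethral gland, at -0.36, did not pass either and turned to 0.086 with size factors. edgeR called miR-10b higher in vesicular gland, at 1.05 (adjusted p 7.7e-05). Between pairs of glands, epididymis and vesicular gland differed by 0.04 (limma adjusted p 0.954) and vesicular and bulbourethral gland by 0.39 (limma adjusted p 0.255).

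The balance of the miR-10 family, which shares 1 seed, therefore differed between glands, and as a ratio within a library it does not depend on scaling. miR-10a-5p made up 62.4 to 67.4% of miR-10a-5p plus miR-10b in prostate gland and 57.4 to 66.0% in vesicular gland. It made up 32.5 to 53.8% in epididymis, 3.45 to 6.16% in bulbourethral gland and 1.88 to 7.28% in testis. The ranges of testis and bulbourethral gland overlapped with each other and lay below those of the other 3 glands.

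**Figure D2:**
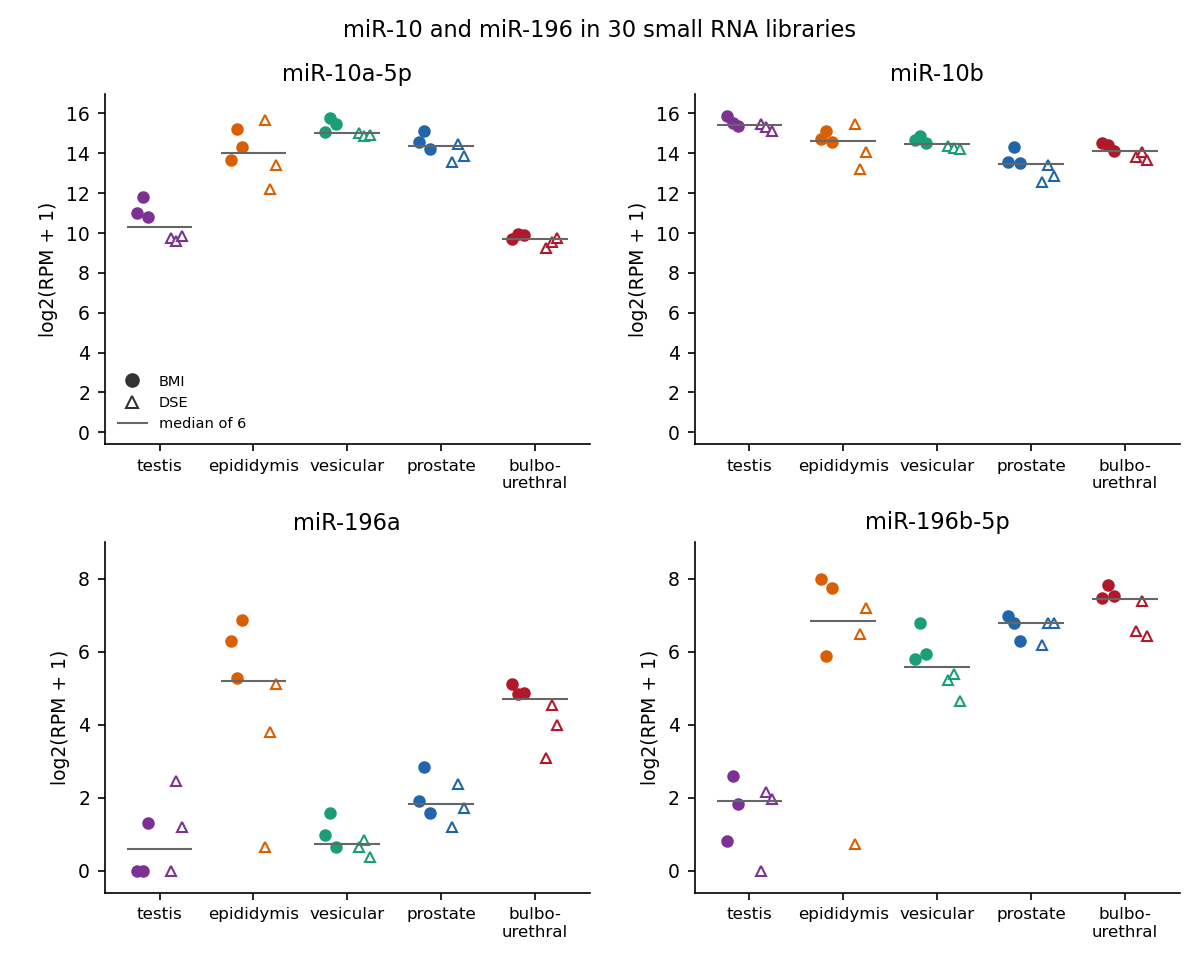
Abundance as log2(RPM + 1) of 4 mature miRNAs in the 30 small RNA libraries by gland, filled circles BMI, open triangles DSE, grey lines medians of 6 libraries. miR-10a-5p is below 12 on this scale in testis and bulbourethral gland alone, miR-10b is high throughout, miR-196b-5p is at 5.03 RPM or less in testis and at 0.67 RPM in 1 DSE epididymis library.

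miR-196b-5p, from the HOXA hairpin, was lower in testis than in the other glands and higher in bulbourethral gland. Bulbourethral gland had a lowest value of 85.6 RPM, a median of 171 and a highest of 224 RPM, and prostate gland 71.2, 109 and 124 RPM. Epididymis had 0.67, 117 and 254 RPM, and vesicular gland 23.9, 47.7 and 109 RPM. Testis had 0, 2.73 and 5.03 RPM, from 0 to 41 recovered reads per library. All testis libraries lay below every library of the other glands except DSE epididymis replicate 1. The log2 fold change of testis was -4.80 (SE 0.55, limma adjusted p 1.8e-08). Bulbourethral gland was higher by 2.24 (SE 0.55, limma adjusted p 0.001423). Prostate gland was higher by 1.53 (SE 0.55, limma adjusted p 0.0319), a call that was lost with a pseudocount of 0.1 RPM, with no filter and on leaving out BMI replicate 1 or 2 or DSE replicate 2 or 3 of the prostate gland, or both libraries low in miR-143-3p. Epididymis and vesicular gland were at 0.75 and 0.28 and did not pass. Without DSE epididymis replicate 1 the epididymis was called higher, at 1.77 (limma adjusted p 0.0001919). No pair among the 4 glands other than testis passed the test for miR-196b-5p.

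miR-196a, from the HOXB and HOXC hairpins, had another pattern than miR-196b-5p. It was highest in epididymis, with a lowest value of 0.56 RPM, a median of 35.5 and a highest of 115 RPM, and in bulbourethral gland, with 7.44, 24.9 and 33.8 RPM. Prostate gland had 1.29, 2.53 and 6.17 RPM, vesicular gland 0.31, 0.68 and 1.97 RPM, and testis 0, 0.66 and 4.49 RPM. All bulbourethral libraries lay above all testis, vesicular and prostate libraries. The log2 fold change was 2.66 in epididymis (SE 0.416, limma adjusted p 2.4e-05) and 2.34 in bulbourethral gland (SE 0.416, limma adjusted p 5.1e-05). It was -2.11 in vesicular gland (SE 0.416, limma adjusted p 0.0001352) and -2.14 in testis (SE 0.416, limma adjusted p 4.9e-05), and prostate gland, at -0.75, did not pass. Epididymis and bulbourethral gland differed by 0.26 (limma adjusted p 0.788), and testis and vesicular gland by -0.02 (limma adjusted p 0.979).

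These low values rest on few reads. miR-196a had 0, 0 and 4 reads in the BMI testis libraries and 0, 53 and 9 in those of DSE. In the 3 libraries at 0, a count of 0 allows up to 3 reads, or 1.01 to 2.32 RPM, for counting error only. In vesicular gland it had 6 to 28 reads in the 5 libraries with recovered reads, at a greater depth. The values above are those of the entry with the higher mean over all libraries, of the 2 entries of miR-196a. The entries differed by at most 15.9 RPM, and the sources used here do not tie them to a hairpin. The 2 entries of miR-196b-5p were identical. miR-196b-3p, the passenger arm, reached at most 0.45 RPM, was at 0 in 12 of 30 libraries and did not pass the filter used for the tests. A count of 0 allows 0.138 to 2.32 RPM in the libraries with recovered reads.

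Of the 9 entries, 7 passed the filter of at least 1 RPM in at least 3 libraries, as 5 mature miRNAs. A call needed a limma adjusted p under 0.05 together with a difference of 1 or more on the log2 scale. In testis 5 of 5 were called, 1 higher and 4 lower, while 63.3% of all 526 entries were called. In epididymis 3 of 5 were called, all higher, against 15.6% of all entries. In vesicular gland 3 of 5 were called, 2 higher and 1 lower, against 32.5%. In prostate gland 4 of 5 were called, 3 higher and 1 lower, against 13.9%, and in bulbourethral gland 4 of 5, 2 higher and 2 lower, against 26.2%. The median log2 fold change of the 5 was 1.53 in prostate gland, 1.44 in epididymis, 0.28 in vesicular gland, -0.36 in bulbourethral gland and -2.42 in testis. edgeR called 3 of the 5 in prostate gland, against 13.7% of all entries in that fit. It called 4 of 5 in each of the other glands, against 51.9% in testis, 20.7% in epididymis, 27.6% in vesicular gland and 29.5% in bulbourethral gland.

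**Figure D3:**
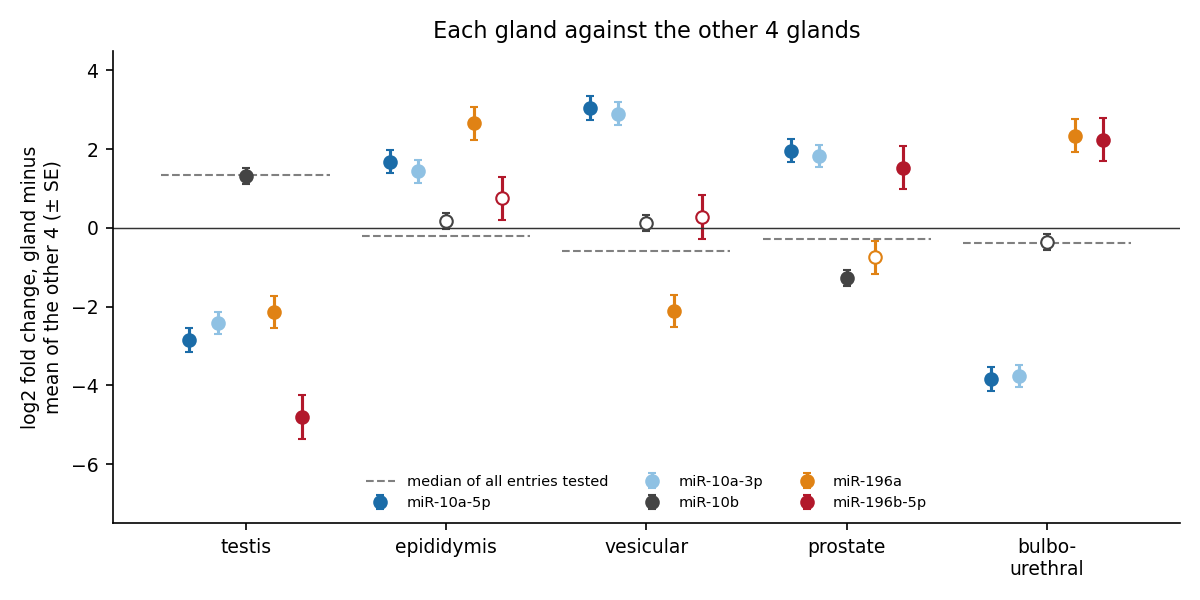
Log2 fold change of each gland against the mean of the other 4 glands with its standard error (limma, 30 libraries). Filled points were called, open points were not, and dashed lines mark the median of all 526 entries tested. The arms of miR-10a lie side by side in each gland, and miR-10b in testis, at 1.32 in RPM, lies on the dashed line at 1.34 and turns to -0.33 with size factors.

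Between pairs of glands, testis differed from epididymis in 4 of the 5 miRNAs, against 63.9% of all entries, and from vesicular gland in 3, against 70.7%. It differed from prostate gland in 4, against 61.6%, and from bulbourethral gland in 4, against 67.1%. In the last pair miR-10a-3p, at 1.07 on the log2 scale, and miR-10b, at 1.34, stood at -0.21 and 0.066 relative to the median entry, which was itself higher in testis by 1.28. Between testis and prostate gland miR-10b, at 2.07, stood at 0.79 relative to the median entry. Epididymis differed from vesicular gland in 3 (21.9% of all entries), from prostate gland in 2 (12%) and from bulbourethral gland in 2 (17.3%). Vesicular gland differed from prostate gland in 1, which was miR-10b (14.4%), and from bulbourethral gland in 3 (24.7%). Prostate and bulbourethral gland differed in 3 (12.5%). In RPM the largest of these differences was that of miR-196b-5p between testis and bulbourethral gland, -5.64 (SE 0.696, limma adjusted p 8.2e-08), and the next that of miR-10a-5p between vesicular and bulbourethral gland, 5.51 (SE 0.376, limma adjusted p 3.1e-11). Relative to the median entry the former came to -6.91 and stayed the largest, while the latter, at 5.63, did not stay next. Larger then were miR-196b-5p between testis and prostate gland, -6.36, and miR-10a-5p between testis and vesicular gland, -6.22.

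The ratio of the highest to the lowest library was larger in epididymis than in any other gland for miR-10a-5p (11.2) and miR-10b (4.73). For miR-10a-5p the BMI libraries held 12811, 38794 and 20668 RPM, and the DSE libraries 52551, 4673 and 11048 RPM. For miR-196b-5p the BMI libraries held 254, 58.1 and 212 RPM, and the DSE libraries 0.67, 89.2 and 146 RPM. The library highest in miR-10a-5p was thus the lowest in miR-196b-5p, and BMI epididymis replicate 2, second in miR-10a-5p, was the next lowest. DSE epididymis replicate 2, by contrast, was the lowest in miR-10a-5p and miR-10b and the second lowest in miR-196a. For miR-196a the BMI libraries held 77.4, 37.8 and 115 RPM, and the DSE libraries 0.56, 13.0 and 33.3 RPM. miR-143-3p, an abundant miRNA of smooth muscle, was at 533516, 231391 and 437176 RPM in BMI and at 327885, 788479 and 650225 RPM in DSE. It was thus highest in the library lowest in miR-10a-5p and lowest in the 2 libraries highest in it, and its part in these RPM values was not tested. The RNA-seq libraries of the same names varied as well. HOXB4 was at 104.75 TPM in DSE replicate 1 of the epididymis and at 22.9 to 37.9 TPM in the other 5. HOXA10 was at 0.22 TPM in DSE replicate 1 and 1.83 TPM in BMI replicate 2, against 20.2 to 70.6 TPM in the other 4. LCN8, a gene of the proximal epididymis, was at 9677 TPM in BMI replicate 2 and at 1.51 to 21.2 TPM in the other 5, and CRISP1 was lowest, at 21.3 TPM, in DSE replicate 1. Which segment each library holds was not tested, and RNA integrity was not analysed here.

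**Figure D4:**
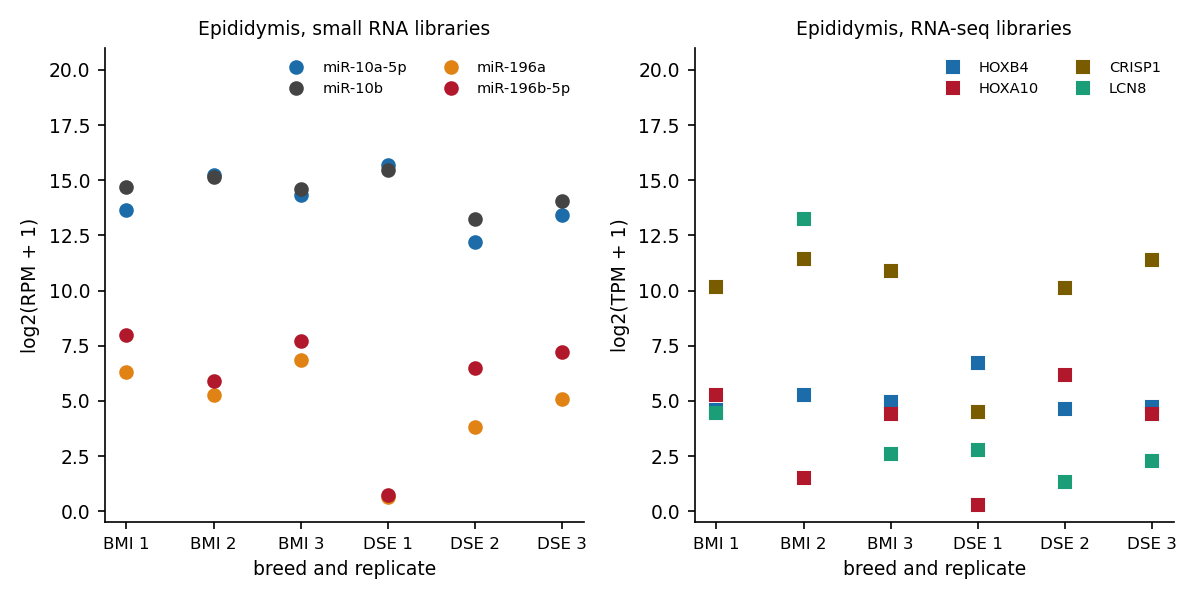
The 6 epididymis libraries of each assay by breed and replicate. Left, log2(RPM + 1) of 4 mature miRNAs; right, log2(TPM + 1) of HOXB4, HOXA10, CRISP1 and LCN8. In DSE 1 both miR-196 and HOXA10 lie near 0 while miR-10a-5p and HOXB4 are at their highest.

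Without the libraries BMI epididymis replicate 2, DSE epididymis replicate 1 and BMI prostate gland replicate 2, a choice made after the data were seen, the epididymis had 3 of 5 miRNAs called, against 19.2% of all entries in that fit. These libraries were left out for their RNA-seq markers, and the sources used here do not say whether libraries of the same name in both assays came from the same piece of tissue. The call of miR-196b-5p was then made, at 2.11 (limma adjusted p 2.9e-05), that of miR-10a-3p was lost, at 0.95, and miR-10a-5p came to 1.02 (limma adjusted p 0.0007981). In prostate gland 5 of 5 were then called, miR-196a at -1.15 being added, against 16.2% of all entries.

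Between the breeds, 1 call was made in the 5 glands. In testis miR-10a-5p was at 2024, 3629.8 and 1767 RPM in BMI and at 868, 775.8 and 915 RPM in DSE, with no overlap, and BMI was 2.76-fold higher (log2 1.46, SE 0.30, limma adjusted p 0.0457). The depth of these libraries also separated by breed, with 1294583, 2583071 and 2722679 miRNA reads in BMI and 2978100, 11816786 and 6891258 in DSE, and its part in this difference was not tested. This call was lost with a pseudocount of 0.1, in a fit of all 30 libraries, with the replicate number as a block and on leaving out any library but BMI replicate 2. Over the 6 libraries left out in turn, the log2 difference was 1.15 to 1.67. miR-10a-3p was at 6.18, 13.9 and 7.35 RPM in BMI testis and at 2.01, 3.05 and 2.90 RPM in DSE testis (log2 1.41, limma adjusted p 0.058), also with no overlap. miR-10b did not follow it, with 49337 RPM as the mean of BMI and 40531 RPM of DSE testis (log2 0.27, limma adjusted p 0.446).

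In testis 6.84% of all entries were called between the breeds. The other glands gave 0 calls of 5, against 3.99% of all entries in bulbourethral gland, 0.38% in epididymis, and 0.19% and 0% in the prostate and vesicular glands. At an unadjusted p below 0.05, limma had 2 of 5 in testis (26.6% of all entries), 4 in vesicular gland (25.5%), 4 in bulbourethral gland (28.1%) and 0 in epididymis (14.4%) and prostate gland (9.89%). edgeR called 1 of 5, in testis, where it called 7.28% of all entries, and 0 of 5 in epididymis (0.384%), vesicular gland (0.795%), prostate gland (0.593%) and bulbourethral gland (0.992%). At an unadjusted p below 0.05 edgeR had 2 of 5 in testis (28.9% of all entries) and 0 in the other glands (2.5 to 11.9%). All 3 BMI libraries lay above all 3 DSE libraries for 2 of 5 miRNAs in testis, where 19.2% of all entries did so, for 4 in vesicular gland (30.8%) and 4 in bulbourethral gland (30.6%), and for 1 each in epididymis (19.8%) and prostate gland (9.7%). The reverse was found for 0 of 5 in every gland, and for 14.6% of all entries in testis and 0.76% in epididymis, with 2.28, 2.09 and 1.33% in the vesicular, prostate and bulbourethral glands. With size factors, the mean difference of miR-10a-5p and miR-10b turned in vesicular and bulbourethral gland, so the order of the breeds there holds in RPM.

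The largest difference between the breeds among the 5 was that of miR-196a in epididymis, which averaged 76.8 RPM in BMI and 15.6 RPM in DSE without overlap (log2 2.96, SE 1.22, limma adjusted p 0.35). Relative to the median entry it stood at 2.42. It was called in a fit of all 30 libraries, at the same difference (limma adjusted p 0.01669), and came to 1.69 without DSE epididymis replicate 1, over a range of 1.69 to 3.92 with each library left out in turn.

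In vesicular gland miR-10a-3p was at 193, 202 and 168 RPM in BMI and at 79.5, 74.3 and 51.1 RPM in DSE. The log2 difference was 1.46 (SE 0.198, limma adjusted p 0.06995). In bulbourethral gland, with 11 to 57 reads per library, miR-10a-3p had a log2 difference of 1.14 (SE 0.242, limma adjusted p 0.05996). In vesicular gland miR-196b-5p was at 54.5, 109 and 60.5 RPM in BMI and at 36.5, 40.9 and 23.9 RPM in DSE (log2 1.09, limma adjusted p 0.161). In bulbourethral gland miR-196b-5p was at 177, 224 and 182 RPM in BMI and at 93.4, 165 and 85.6 RPM in DSE (log2 0.81, limma adjusted p 0.153). These groups did not overlap, but the median of all entries was also higher in BMI, by 0.39 and 0.41 on the log2 scale in these glands and by 0.54 in epididymis, 0.10 in testis and 0.09 in prostate gland. Relative to it, miR-196b-5p stood at 0.70 in vesicular gland and 0.40 in bulbourethral gland, and miR-10a-3p at 1.08 and 0.73. For miR-10b the log2 difference of 0.37 in vesicular gland and of 0.50 in bulbourethral gland turned to -0.26 and -0.28 with size factors. A difference of the breed effect between glands was not shown for any of the 5, with limma F-test adjusted p of 0.20 to 0.98, while 4.75% of all entries passed that test.

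Among the HOX genes beside the hairpins, HOXB4, a transcription factor of the anterior part of the cluster, followed the glands of miR-10a. Its median was 36.7 TPM in vesicular gland, 27.6 in epididymis, 5.88 in prostate gland and 0.394 in testis, and in bulbourethral gland it ranged from 0.44 to 1.19 TPM. In limma on log2(TPM + 1), HOXB4 was higher in epididymis by 2.81 and in vesicular gland by 2.75, and lower in testis by -3.12 and in bulbourethral gland by -2.50 (limma adjusted p of 1.1e-08 or below). HOXB3 and HOXB5 were called in the same 4 glands and directions. In prostate gland, where miR-10a-5p was called higher, HOXB4 stood at 0.06 (limma adjusted p 0.848).

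HOXD4, beside miR-10b, had its medians in the same order as those of miR-10b in epididymis, vesicular, bulbourethral and prostate gland, but not in testis. HOXD4 had a median of 1.47 TPM in testis, where miR-10b took its largest share of reads but turned to -0.33 with size factors and -0.71 with edgeR, and of 28.1 TPM in epididymis, 12.0 in vesicular gland, 7.25 in bulbourethral gland and 4.90 in prostate gland. These sums leave out isoforms that join HOXD4 to HOXD3, described further on. HOXD4 was lower in testis by -2.32 (SE 0.175, limma adjusted p 9.9e-12) and higher in epididymis by 2.30 (SE 0.175, limma adjusted p 1.6e-10). The HOXD3 sums, which leave out the same isoforms, were highest in vesicular gland, with a median of 9.13 TPM. Their median was 0.702 TPM in epididymis and 0.034 TPM or less in the other 3 glands. PB.7492.3, an isoform that joins both genes, had medians from 1.35 TPM in testis to 7.85 TPM in epididymis. Low HOXD3 sums therefore do not show that HOXD3 transcripts were lacking.

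HOXA10, beside miR-196b, had a median of 51.4 TPM in bulbourethral gland, 25.7 in prostate gland, 20.3 in epididymis, 2.21 in vesicular gland and 0.112 in testis. It was called in 4 glands, with a log2 fold change of 3.15 in bulbourethral gland, 1.77 in prostate gland, -1.64 in vesicular gland and -3.83 in testis (limma adjusted p 0.0062 or below). HOXA9 was called in the same 4 glands and directions, with -2.51 in vesicular gland, and was also higher in epididymis, at 1.82. In vesicular gland HOXA9 and HOXA10 were therefore called lower, while miR-196b-5p was not called there.

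Beside the miR-196a hairpins, HOXC10 was called in epididymis alone, with a median of 2.70 TPM against 0.577 or less elsewhere (log2 1.39, limma adjusted p 0.0002006), and HOXC9 was called higher in testis, at 2.69, and in epididymis, at 1.45, and lower in the other 3 glands. HOXB9 had medians of 47.8 TPM in epididymis, 23.8 in vesicular gland and 14.1 in prostate gland, with 0.195 TPM or less in bulbourethral gland and testis. HOXB13, the most distal HOXB gene, was at 92.7 to 297 TPM in prostate gland, was listed at 0 in all libraries of epididymis, vesicular and bulbourethral gland, and reached 0.21 TPM in testis. Bulbourethral gland thus held miR-196a with little HOXB9, HOXC9 or HOXC10.

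**Figure D5:**
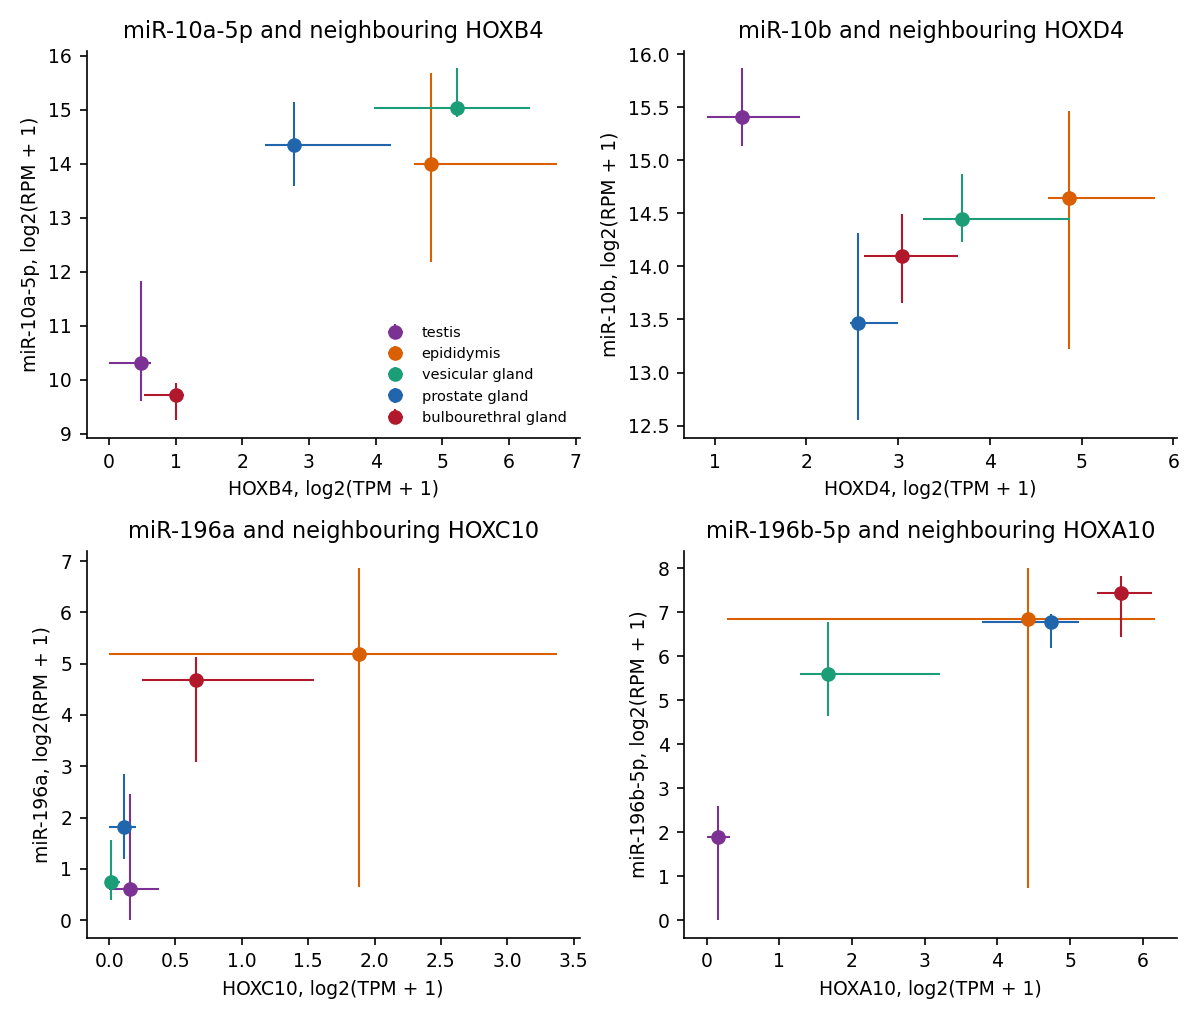
Abundance of 4 miRNAs, log2(RPM + 1), against that of the HOX gene nearest to a hairpin, log2(TPM + 1). Points are medians over 6 small RNA and 6 RNA-seq libraries of a gland and lines run from the lowest to the highest library. In RPM miR-10b is highest in testis, where HOXD4 is lowest and where miR-10b turns to -0.33 with size factors, while miR-10a-5p is low in the 2 glands in which HOXB4 is low.

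Of 37 HOX genes, 34 passed the filter of at least 1 TPM in at least 3 libraries. In testis 1 was called higher and 24 lower, while 47.3% of all genes were called in either direction. The counts were 24 higher and 5 lower in epididymis (21.7% of all genes), 7 and 13 in bulbourethral gland (20.4%), 13 and 7 in vesicular gland (33%), and 11 and 3 in prostate gland (16.5%). Named because they are few, the one higher in testis was HOXC9, those lower in epididymis were HOXA13, HOXB13, HOXD11, HOXD12 and HOXD13, and those lower in prostate gland were HOXC6, HOXC9 and HOXD8. The median log2 fold change of the HOX genes was -2.29 in testis and 1.79 in epididymis, beside 0.31 and 0.25 over all genes.

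Known targets were followed as lists typed from general knowledge. Of the miR-196 targets, 5 of 6 were tested, as HMGA2 was not found in the annotation. In epididymis, where miR-196a was called higher, 5 of 5 were called higher as well, against 21.7% of all genes called in either direction. The largest were HOXB8 at 4.14 and HOXD8 at 2.31. The others, named after their values were seen because they are few, were HOXC8 at 2.12, HOXA7 at 2.05 and ANXA1 at 1.75. All of these but ANXA1 are HOX genes, of which 24 of 34 were called higher in epididymis. The count therefore does not set these targets apart from HOX genes in general. In testis, where both miR-196 were called lower, 2 were lower (47.3% of all genes called), HOXB8 at -4.16 and HOXA7 at -2.54. Of the HOX genes, 24 of 34 were called lower there. In bulbourethral gland, where both were higher, 1 was lower (20.4%), HOXB8 at -3.90, from a mean of 52.5 TPM in the other glands to 0.217 TPM. In vesicular gland 1 was higher (33%), HOXB8 at 3.46, and in prostate gland 1 was lower (16.5%), HOXD8 at -2.20. HOXB8 is the transcript whose cleavage by miR-196 is best known, and it was low in testis and bulbourethral gland and high in epididymis and vesicular gland. Whether miR-196 bears on its level was not tested.

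Of 10 miR-10 targets, 2 were higher and 1 lower in testis, against 47.3% of all genes called in either direction. KLF4, a transcription factor of epithelia and spermatids, was higher by 2.36 and BTRC, part of a ubiquitin ligase, by 1.27, while HOXA3 was lower by -2.74. In vesicular gland, where miR-10a-5p was at its highest, 2 were higher, TIAM1 at 1.20 and HOXA3 at 1.14, and 2 lower, BTRC at -1.13 and KLF4 at -1.03, against 33% of all genes. In epididymis 2 were higher (21.7% of all genes called), HOXA3 at 1.55 and HOXD10 at 1.19, and in bulbourethral gland 1 was (20.4%), TFAP2C at 1.09. In prostate gland 2 were lower (16.5%), KLF4 at -1.43 and TIAM1, an activator of Rac, at -1.10. The median log2 fold change of the 10 was -0.52 in vesicular gland, beside -0.69 over all genes, and 0.16 in testis, beside 0.31.

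The Iso-seq libraries held full-length isoforms with an exon in 2 of the hairpins. Isoforms PB.7492.3, with 38 reads, and PB.7492.4, with 7, cover HOXD4 and HOXD3 and start at chr15:81951715 on the plus strand, 41 bases after the end of mature miR-10b, so that 9 bases of their first exon lie in the hairpin. PB.7492.3 had 6 reads in BMI and 1 in DSE epididymis, 10 and 9 in vesicular gland, 11 and 0 in prostate gland, 0 and 1 in bulbourethral gland and 0 in both testis libraries. In RNA-seq its median was 7.85 TPM in epididymis, 6.49 in vesicular gland, 1.35 in testis, and 3.43 and 2.51 in the bulbourethral and prostate glands. Its medians too had the order of those of miR-10b in the 4 glands other than testis, but those of PB.7492.4 did not, with 3.11 TPM in vesicular gland, 3.09 in epididymis, 0.223 in bulbourethral gland and 0 in prostate gland, beside 0.233 in testis. PB.7492.3 was at its lowest in testis, where miR-10b took its largest share of reads but turned to -0.33 with size factors and -0.71 with edgeR. With 1 Iso-seq library for each breed and gland there was no replicate check of these reads.

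On the strand opposite to mir-196b-1, PB.9719.1 with 8 reads and PB.9719.3 with 7 cover all 85 bases of the hairpin with an exon. All of their reads came from prostate and bulbourethral gland. In RNA-seq PB.9719.1 was at 18.9 to 30.6 TPM in bulbourethral gland and 9.41 to 33.1 TPM in prostate gland. It was at 0.072 to 2.43 TPM in epididymis, 0 to 1.33 TPM in testis and 0 to 0.131 TPM in vesicular gland. The vesicular gland, with 23.9 RPM or more of miR-196b-5p in each library, thus had almost none of it. No exon of an isoform lay in MIR10A, MIR196A-1 or MIR196A-2. An intron of PB.3611.1, an isoform of SPOP with 2 reads that stretches over chr12:24252919-25860752, spans both MIR10A and MIR196A-1 on their strand. Introns of 3 isoforms with 2 to 10 reads span MIR196A-2 on the opposite strand. PB.3611.26, with 2 reads, lies 394 bp from MIR10A, and PB.9718.1 of HOXA9, also with 2, lies 98 bp from mir-196b-1, both on the strand of the hairpin.

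The miRNAs most alike to each member were sought by Pearson r of log2(RPM + 1) over the 30 libraries among 364 known entries. The libraries share 5 glands and a common scale, so r describes these libraries only. miR-10a-5p was most like miR-135 (r = 0.845), miR-210 (0.751) and miR-143-5p (0.742). miR-10b was most like miR-185 (0.836), miR-1296-5p (0.829) and miR-10384 (0.802). miR-196a was most like miR-382 (0.777), miR-299 (0.769) and miR-411 (0.708). miR-196b-5p was most like miR-200b (0.783), miR-141 (0.746) and miR-429 (0.728). Between members, r was 0.980 for the arms of miR-10a, 0.672 for miR-196a with miR-196b-5p, -0.145 for miR-10a-5p with miR-10b and -0.671 for miR-10b with miR-196b-5p.

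Markers of cell types also differed between the glands. The 3 measured of 5 epithelial miRNAs of the miR-200 family summed to 184 to 305 RPM in testis and to 1676 to 43157 RPM in the libraries of the other glands. The 2 smooth muscle miRNAs, miR-143 and miR-145, summed to 13890.2 to 34594 RPM in bulbourethral gland and 128504 to 195508 RPM in testis, the glands low in miR-10a-5p. They summed to 31416 to 793627 RPM in the other 3, where the low end is the library BMI prostate gland replicate 3, which held 19302 RPM of miR-10a-5p. The part of cell composition in these results was not tested.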

How the data were processed

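The values of the small RNA libraries were deposited as RPM with 2 decimals. The authors trimmed adapters, removed other small RNAs with Bowtie 1.3.1 and quantified known and predicted miRNAs with miRDeep2. Gene values are sums of TPM, which the authors obtained per transcript with Salmon 1.9.0. Isoforms spanning several genes were left out of these sums. Iso-seq values were deposited as counts of full-length reads per isoform. The build is Sscrofa11.1.

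Values were used as log2(value + 1). Entries reaching 1 RPM, or genes reaching 1 TPM, in 3 or more libraries entered limma 3.58.1 in R 4.3.3, with 1 mean for each of 10 groups of breed and gland. Breeds were compared within the 6 libraries of a gland. Adjustment was by Benjamini-Hochberg over all entries or genes fitted, and calls needed 0.05 and a difference of 1 on the log2 scale. edgeR 4.0.16 was run on whole reads recovered in 28 libraries, in which a median of 100% and at least 96.8% of low values were whole within 0.1 read. BMI epididymis replicate 3 and DSE vesicular gland replicate 2 were left out there. Intervals for reads at 0 cover counting error only.

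Named were all member entries, the 3 most alike entries, the HOX genes beside the hairpins, and up to 2 targets in each direction and gland, to which few others were added after their values were seen, as the text says. 1 gene of the list of miR-10 targets is not reported here and was left out of its counts. Sequences are RefSeq's. The members and lists were chosen with earlier results of these data known. Over 60 pairs of libraries of 1 breed and number, deviations from group means correlated from -0.605 to 0.552, with a median of 0.042. Pairs of unlike number were not compared, so this cannot show whether equal numbers mark 1 boar. Numbers were not taken as pairs because the sources used here do not say what they pair. On simulated data, limma recovered 100% of 200 entries changed by 2 log2 between glands and 89% between breeds, the F-test of breed by gland 76.5%, edgeR 97%, and limma 97% of 200 genes. The breed run took the spread of prostate gland only. It changed 200 of 526 entries, far more than were called between breeds in any gland. Its share therefore does not give the recovery in the real breed contrasts. Python 3.11.15 was used.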

Additional observations from a re-analysis of the deposited data

Results flagged for a closer look

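Among 35 groups of 6 libraries examined for a value far from the rest, of which chance picks about 1 in 20, 1 stood out. miR-196a in testis was at 4.49 RPM in DSE replicate 2, from 53 reads, while the other 5 libraries held 0 to 1.47 RPM. That library was also the deepest of the testis, with 11816786 miRNA reads against 1294583 in the shallowest. miR-196b-5p, at 3.47 RPM there, was within the range of the other testis libraries.

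miR-615, another miRNA of a HOX cluster, was the one of the 6 relatives examined whose difference between the breeds changed with the gland (limma F-test over 4 differences, Benjamini-Hochberg adjusted p 0.007188). In testis it averaged 5.34 RPM in BMI and 22.5 RPM in DSE (log2 -1.88, limma adjusted p 0.0117, with no overlap). In epididymis it averaged 22.4 RPM in BMI and 9.43 RPM in DSE (log2 1.10, limma adjusted p 0.35, with overlap). In the other 3 glands it reached at most 1.52 RPM.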

How the results depend on the processing

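The number of the 5 miRNAs called between glands stayed within 1.5 times its value in 45 of 45 alternative fits and in all 30 that left out a library. Of their log2 fold changes, 210 of 225 kept their direction and side of the threshold. The calls over all entries moved most: with size factors 192 entries were called in testis and 109 in vesicular gland, and with a pseudocount of 0.1, 119 in prostate gland, 210 in bulbourethral gland and 22 HOX genes in prostate gland. miR-10b turned to -0.33 (size factors) and -0.71 (edgeR) in testis and to 0.086 and 0.13 in bulbourethral gland. It turned to -0.17 in epididymis without the libraries that stood apart by marker genes and to -0.12 without DSE epididymis replicate 1 (-0.12 to 0.437 over the libraries left out), and miR-196b-5p in vesicular gland turned to -0.05 in the former.

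Between breeds, miR-10a-5p in testis was not called with a pseudocount of 0.1, in a fit of all 30 libraries or with the replicate block (0 of 5 miRNAs each). Replicate numbers were not taken as pairs. With the replicate block the log2 difference of miR-10a-5p was 1.46 with limma adjusted p 0.104, and 0 entries were called in epididymis and 0 in prostate gland. The block left the number of the 5 miRNAs called between glands as it was. A fit of all 30 libraries called 1 of the 5 miRNAs (miR-196a, 2.96) and 54 entries in epididymis, 23 entries in vesicular gland and 3 in prostate gland. Without a filter, 1 of the 5 was called in bulbourethral gland (miR-10a-3p, 1.14), and 2 entries in each of vesicular and prostate gland. A pseudocount of 0.1 gave 4 entries in vesicular and 3 in prostate gland. Size factors gave 3 in each of vesicular, prostate and bulbourethral gland, and edgeR 4, 3 and 5. Leaving out the libraries that stood apart, chosen after the data were seen, gave 0 in epididymis and 0 in prostate gland, and leaving out those low in miR-143-3p gave 15 in vesicular and 2 in prostate gland.

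Differences between breeds that turned were all uncalled. With size factors and with edgeR, miR-10a-5p turned to -0.11 and -0.81 in epididymis, -0.12 and -0.29 in vesicular gland and -0.45 and -0.40 in bulbourethral gland, and miR-10b to -0.19 and -0.55, -0.26 and -0.38, and -0.28 and -0.25. miR-196b-5p in prostate gland turned to -0.029 and -0.13, and miR-196a there to -0.023 without BMI replicate 2. The causes were not tested.

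With 1 library left out, the 5 miRNAs called numbered 5 in testis, 3 to 4 in epididymis, 3 in vesicular gland, 3 to 4 in prostate gland and 4 in bulbourethral gland, and between breeds 0 to 1 in testis and 0 elsewhere. The entries called between breeds ranged from 3 to 23 in testis, 0 to 2 in epididymis, 0 to 15 in vesicular gland, 0 to 2 in prostate gland and 0 to 26 in bulbourethral gland. Turned values then ran from -0.31 to 0.84 for miR-196b-5p in testis, -0.092 to 0.303 in prostate gland, -0.15 to 1.60 for miR-10a-5p in epididymis and -0.023 to 0.649 for miR-196a in prostate gland. Depth limits miR-196 in the 3 BMI testis libraries and DSE testis replicate 1, which held 0 to 13 reads of miR-196a or miR-196b-5p.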

Other observations

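The relatives of miR-10 outside the HOX clusters were spread more evenly over the glands than miR-10a. miR-99a-5p had medians of 19485 to 45516 RPM, miR-100 of 5123 to 9633 RPM, miR-125b of 1845 to 2516 RPM, miR-99b of 426 to 2301 RPM and miR-125a of 397 to 989 RPM by gland. Against the mean of the other 4 glands, miR-99b alone of these was called, higher in testis by 2.26 on the log2 scale (limma adjusted p 1.6e-09), or by 0.92 relative to the median entry, and lower in vesicular gland by -1.01 (limma adjusted p 0.0004207) and in prostate gland by nearly as much (limma adjusted p 0.001128). Relative to the median entry these came to -0.43 and -0.72.

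miR-615, which lies in the HOXC cluster, was found in testis at 4.04 to 29.5 RPM and in epididymis at 5.84 to 32.0 RPM. It reached 0.75 RPM in vesicular gland, 1.11 RPM in bulbourethral gland and 1.52 RPM in prostate gland. It was called higher in testis by 2.23 and in epididymis by 2.60 (limma adjusted p 1.9e-10 and 1.8e-10). HOXC9 was also called higher in both, but it was the only HOX gene called higher in testis, where 24 of 34 were lower. Relative to the median entry it stood at 0.89 in testis and 2.80 in epididymis. The testis, low in miR-196a and miR-196b-5p, thus held miR-615.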
